A study of Homo sapiens with 9 samples.

Results

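The replication-dependent histone genes encode the bulk histones that package newly made DNA: the core histones H2A, H2B, H3 and H4, and the linker histone H1. Members were taken as the protein-coding rows of the count table whose GENCODE 29 symbol names an H1, H2A, H2B, H3 or H4 gene of histone clusters 1 to 4. This gave 71 of 20265 rows: 6 H1, 17 H2A, 18 H2B, 15 H3 and 15 H4 genes. Cluster 1 on chromosome 6 held 55 of them, cluster 2 on chromosome 1 held 12, cluster 3 on chromosome 1 held 3, and cluster 4 on chromosome 12 held only HIST4H4. RNA-seq counts came from 9 libraries of U937, an established human monocytic line, in its U937-Cas9 form, where Cas9 is the nuclease used for gene editing. Of these libraries, 3 came from IRF2 knockout cells labelled as carrying pIRF2 (IRF2KO_pIRF2), 3 from IRF2 knockout cells (IRF2KO) and 3 from WT cells. Nothing in the labels gives the product of pIRF2, the number of clones behind a line, the edit made to the locus or whether replicates were grown as separate cultures. The p-values therefore measure the spread between libraries, and that spread may be technical.

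Most of these genes are transcribed in S phase, when DNA is replicated. Their mRNAs are the only known animal mRNAs that end in a conserved stem-loop instead of a poly(A) tail; SLBP binds the stem-loop and the U7 snRNP directs the cut after it. A kit that primes or selects mRNA by poly(A) therefore samples them poorly, and sees mainly molecules that were polyadenylated or read through the usual end. IRF2 was described in earlier work as HiNF-M, a factor that binds the site II element of human H4 gene promoters, which is the reason H4 genes are set beside the other classes here.

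Libraries held 14824907 to 23108288 counts, and mitochondrially encoded genes took 12.2% to 18.8% of them. IRF2, the targeted gene, had 15.2, 18.1 and 18.4 CPM (read counts scaled to library size, here with TMM factors) in the libraries labelled pIRF2, 23.5, 25.9 and 25.5 CPM in IRF2KO and 37.1, 39.1 and 44.1 CPM in WT libraries. IRF2 was therefore lower, not higher, in the libraries labelled pIRF2 than in IRF2KO libraries, and every direction reported for these 3 libraries depends on that label. All 17 monocytic markers had counts. Of the 15 tested, 0 passed in any comparison, with a median log2 fold change of 0.23 in IRF2KO against WT libraries, all 15 above 0, against a median of -0.01 over all tested genes, of which 0.417% passed in that comparison. Of other cell types, the erythroid list had 6 of 10 genes at 0 counts, and its sum was 0 to 0.258 CPM in libraries labelled pIRF2, 0.169 to 0.304 CPM in IRF2KO and 0.309 to 0.457 CPM in WT libraries. The epithelial and fibroblast list had 4 of 8 genes at 0 counts (EPCAM among them), and its sum was 2.14 to 2.63 CPM in libraries labelled pIRF2, 0.68 to 1.32 CPM in IRF2KO and 0.261 to 1.08 CPM in WT libraries. CD3D and CD8A were at 0 counts among T-cell markers and MS4A1 among B-cell markers, whose list summed to 17.7 to 19.3 CPM in libraries labelled pIRF2, 19.6 to 30.01 CPM in IRF2KO and 13.7 to 19.1 CPM in WT libraries. Of the 5 B-cell markers, 3 were tested and 0 passed in IRF2KO against WT. Their median log2 fold change was 0.56, with all 3 above 0. The T and NK list summed to 325 to 343 CPM in libraries labelled pIRF2, 318 to 453 CPM in IRF2KO and 289 to 357 CPM in WT libraries, with 1 of its 7 genes past the filter on low counts. The part of these markers in the histone values was not tested.

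The promoter sequences show what separates H4 from the other classes. RefSeq promoter windows on GRCh38.p14, from 250 bases before to 50 bases after the gene start, were matched for 60 members, among them 13 of 15 H4 genes. The letters GGTCCG, part of the H4 site II element, were found on either strand in 12 of these 13 H4 windows, in 1 of 16 H2A, 1 of 13 H2B, 1 of 12 H3 and 0 of 6 H1 windows, and in 11.3% of all 35116 promoter windows. In the 12 H4 windows they began 44 to 47 bases before the start. HIST1H4G was the H4 window without them. Stretches from 75 to 16 bases before the start are shown for the tested H4 genes with a window, for HIST1H4G and for a pair of highly counted H2B genes, with GGTCCG in capitals in H4 genes and the octamer ATTTGCAT in capitals in H2B genes; positions are GRCh38.p14, counted from 1.
HIST1H4E (chr6:26204535-26204594, plus strand): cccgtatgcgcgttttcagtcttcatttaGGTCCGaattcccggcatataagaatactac
HIST1H4H (chr6:26285550-26285609, minus strand): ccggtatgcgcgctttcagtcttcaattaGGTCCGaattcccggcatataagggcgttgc
HIST1H4I (chr6:27139207-27139266, plus strand): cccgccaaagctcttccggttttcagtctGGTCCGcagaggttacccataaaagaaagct
HIST1H4G (chr6:26247012-26247071, minus strand): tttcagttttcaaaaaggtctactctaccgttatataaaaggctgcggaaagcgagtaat
HIST1H2BK (chr6:27146874-27146933, minus strand): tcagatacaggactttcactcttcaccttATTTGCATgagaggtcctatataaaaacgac
HIST2H2BE (chr1:149886698-149886757, minus strand): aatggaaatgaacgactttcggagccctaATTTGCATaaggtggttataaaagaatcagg

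The octamer, the DNA word read by POU2F1 (OCT1), was found on either strand in 9 of 13 H2B and 11 of 16 H2A windows, in 0 windows of the other classes and in 1.77% of all windows. Starts of back-to-back H2A and H2B genes lay 218 to 330 bases apart, so the windows of a pair overlap and can count the same site for both genes. The H2A and H2B windows with GGTCCG were those of such a pair, HIST2H2AC and HIST2H2BE. CCAAT was in all 6 H1, 16 H2A, 13 H2B and 12 H3 windows but in 3 of 13 H4 windows, against 34.6% of all windows. TATAAA was in 41 of the 60 windows, against 11.5% of all. The repeat that interferon regulatory factors bind in interferon-responsive promoters, searched as GAAA, any 2 bases and GAAA again, was in 0 of 13 H4 windows and in 4 of 60 in all (HIST1H2BJ, HIST1H3H, HIST2H3D and HIST2H3PS2), against 3.57% of all windows. Overlaps between motifs were counted for each motif. These are matches of letters in 1 window and say nothing of binding.

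The 3' end stem-loop, the feature that sets these mRNAs apart, was found in annotated transcripts of 31 members, and 22 of these had over 100 annotated bases after it, which places an annotated 3' end beyond the histone cut site. Such transcripts were annotated for 3 H2A, 9 H2B, 4 H3 and 6 H4 genes. The search pattern ended AGAGCC in 22 members and AGGGCC in 9, which were all 8 H4 genes found and the H2A gene HIST1H2AG. The stem and loop are shown in capitals for a highly counted H2B gene, a tested H4 gene, the H2A gene that shared the H4 ending and the most counted H2A gene (GRCh38).
HIST2H2BE (chr1:149886183-149886208, minus strand): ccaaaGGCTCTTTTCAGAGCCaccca
HIST1H4E (chr6:26204996-26205021, plus strand): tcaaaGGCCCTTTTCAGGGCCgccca
HIST1H2AG (chr6:27133510-27133535, plus strand): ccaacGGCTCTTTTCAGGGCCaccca
HIST3H2A (chr1:228457364-228457389, minus strand): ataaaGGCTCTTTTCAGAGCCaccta

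Replication-dependent histone genes were thinly sampled. Together they had 11733 counts over the 9 libraries, of which the top 5 genes took 41.2% and the top 10 took 62%. Without TMM factors they held 74.7, 48.2 and 77.2 CPM in libraries labelled pIRF2 (95% Clopper-Pearson intervals 71.2 to 78.3, 45.2 to 51.3 and 73.5 to 81.0), 73.9, 73.4 and 81.9 in IRF2KO libraries (69.8 to 78.1, 69.8 to 77.2 and 77.7 to 86.2) and 66.0, 62.3 and 48.6 in WT libraries (62.4 to 69.8, 58.4 to 66.5 and 45.5 to 51.7). Replicate 2 labelled pIRF2 and WT replicate 3 lay below the other 7 libraries beyond counting error, which is all that these intervals cover. No count was found for 17 members, and a count of 0 allows up to 3 counts per library, or 0.130 to 0.202 CPM without TMM factors. Counts of 1 to 19 in all were found for 10 members and of 20 or more for 44.

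The genes with the most counts were HIST2H2BE (1182 counts), HIST3H2A (1110), HIST1H1C (1025), HIST1H1E (820) and HIST1H2BK (702). Per kilobase of annotated exon and averaged over the 9 libraries, HIST1H2BK (10.6 CPM), HIST1H1C (9.14 CPM), HIST1H2BO (8.47 CPM), HIST1H2AM (7.22 CPM) and HIST3H2A (7.12 CPM) were highest. By class, H2B genes took 40.5% of the members' counts, H2A genes 25.2%, H1 genes 17.9%, H3 genes 10.8% and H4 genes 5.57%. H4 was thus the least counted class although it had as many genes as H3. The most counted H4 gene, HIST1H4A, had 137 counts, and HIST1H4F, HIST1H4G, HIST1H4L, HIST2H4A and HIST4H4 had 0.

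Near-identical copies limit what single genes can show. In 11 members, under 5% of the 50-base words of their transcripts were found in no other annotated transcript, and 4 of the 17 members at 0 counts were among these (HIST2H3PS2, HIST2H4A, HIST2H3A and HIST2H2AA3). The other 13 members at 0 counts had over 95% such words. How the authors' counting treated reads that fit several copies was not stated in the labels or processing notes. HIST2H4B, HIST1H2AD and HIST1H3D, with 58, 161 and 53 counts, had under 5% unique words and are therefore uncertain. HIST1H2AM shared 88% of its exon bases with HIST1H3J on the same stretch of chromosome 6, and HIST1H2AK lay wholly within exons of HIST1H2BN. Members without an annotated UTR, 35 by length and structure, could not collect reads that fell in their true UTRs.

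Many H2A and H2B genes stand back to back and share the DNA between their starts. In 11 such pairs the starts were within 1000 bases, and 9 pairs had over 3 counts in both genes. Levels within pairs were unequal: per kilobase of annotated exon, the H2B gene was higher in 7 pairs and the H2A gene in 2, and 6 pairs were over 2-fold apart. HIST1H2BK had 10.6 CPM per kilobase against 0.762 for HIST1H2AH, 330 bases away, a ratio of 13.9. In the other direction, HIST3H2A had 7.12 CPM per kilobase against 0.161 for HIST3H2BB, 233 bases away. HIST1H2BO and HIST1H2AM, with 8.47 and 7.22 CPM per kilobase, were the closest pair. Annotated lengths run past the stem-loop for some of these genes and not for others, so the ratios depend on the annotation.

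**Figure D1:**
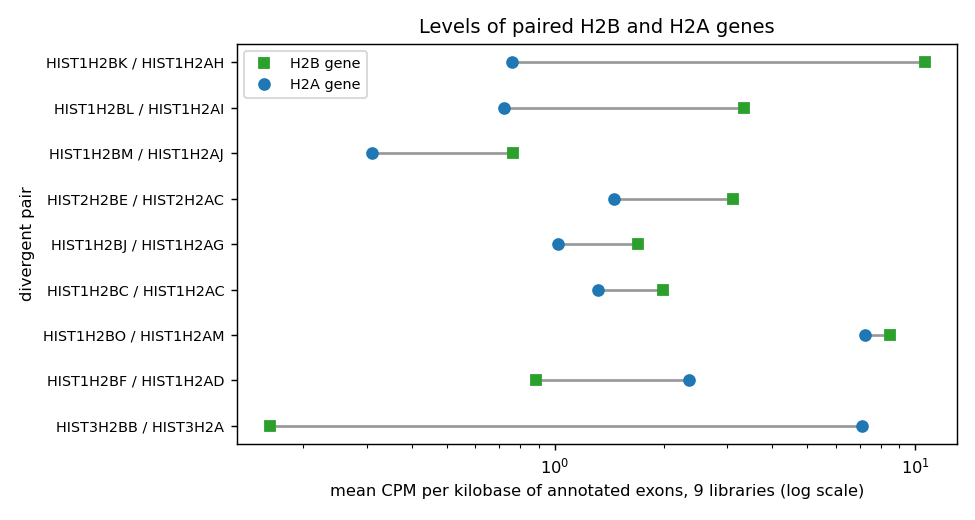
Mean level over 9 libraries, in CPM per kilobase of annotated exon on a log axis, of the H2B gene (green squares) and the H2A gene (blue circles) of 9 back-to-back pairs. The H2B gene is to the right in 7 pairs, and the widest gaps are those of HIST3H2BB with HIST3H2A and of HIST1H2BK with HIST1H2AH.

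IRF2KO libraries were first set against WT libraries, which asks whether histone transcript levels differ when the IRF2 locus is edited. The summed level of all 71 genes was 70.7, 76.2 and 82.4 CPM in IRF2KO libraries, against 65.2, 60.3 and 49.8 CPM in WT libraries. Every IRF2KO library lay above every WT library, with means of 76.4 ± 5.89 and 58.4 ± 7.88 CPM (SD, n = 3 each), a ratio of 1.31 or 0.39 on the log2 scale. No single histone gene passed the gene test. In bulk RNA, more cells in S phase and more histone RNA per cell cannot be told apart. With a kit that selects by poly(A), a larger polyadenylated or read-through share of histone RNA cannot be told apart from these either. These libraries were made with Lexogen's SENSE mRNA-Seq kit.

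The difference ran across the core histone classes. H4 genes summed to 3.85, 4.50 and 4.56 CPM in IRF2KO libraries and 3.76, 3.59 and 1.59 CPM in WT libraries, a ratio of 1.45. H3 genes summed to 7.93, 8.35 and 10.2 CPM in IRF2KO and 6.95, 6.59 and 5.24 CPM in WT libraries, a ratio of 1.41. The ratio was 1.37 for H2B genes and 1.20 for H2A genes, and in all of these classes the groups did not overlap. The H2A sums lean on 1 gene, since HIST3H2A held 1110 of the 2955 H2A counts and was highest in WT replicate 3. H2A sums without HIST3H2A were not compared. H1 genes had a ratio of 1.23 with overlapping groups, since WT replicate 1 (13.4 CPM) exceeded IRF2KO replicate 2 (12.9 CPM). In the H4 sums the gap between IRF2KO replicate 1 and WT replicate 1 was small against the drop to WT replicate 3, and no test of a difference between classes was made. By position, the ratio was 1.37 for cluster 1, 1.20 for cluster 2 and 1.06 for cluster 3, which holds HIST3H2A, with overlapping groups for clusters 2 and 3.

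**Figure D2:**
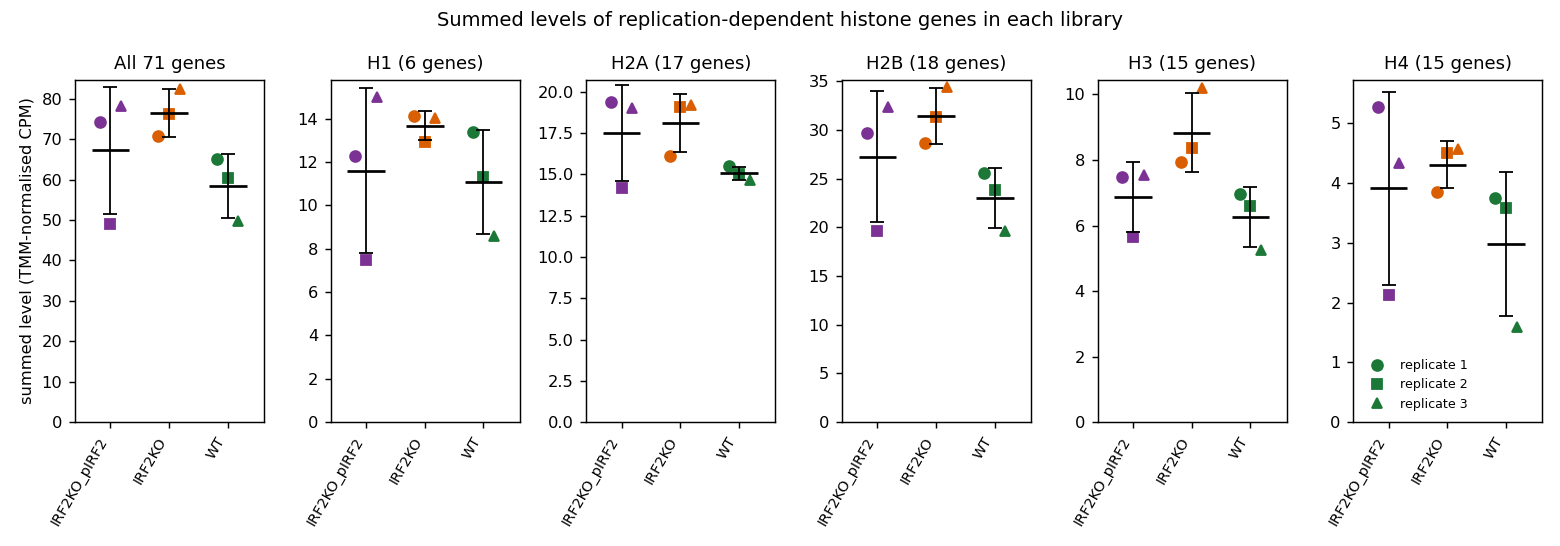
Summed level in TMM-normalised CPM of all 71 genes and of each class, 1 point per library with the mean and SD (n = 3) of IRF2KO_pIRF2, IRF2KO and WT. Replicate 2 labelled pIRF2 and WT replicate 3 are lowest in their groups in each panel, and IRF2KO points lie above WT points except for H1.

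Part of this difference lay in WT replicate 3. Its summed level was 0.793 of the mean of WT replicates 1 and 2 over all members, 0.433 for H4 genes and 0.963 for H2A genes. Without it the log2 ratio of the summed level was 0.28, against 0.39 with it. IRF2KO and WT libraries also differed in mitochondrial share. Among libraries under 15% mitochondrial counts (IRF2KO replicate 1 and WT replicates 1 and 2) the log2 ratio was 0.17, and among those over 15% (IRF2KO replicates 2 and 3 and WT replicate 3) it was 0.67.

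A total of 30 members passed the filter on low counts, which asks for 0.501 CPM in at least 3 libraries: 4 H1, 7 H2A, 11 H2B, 3 H3 and 5 H4 genes. Of these, 20 reached that level in all 9 libraries and 10 did not. Among the 10, HIST1H4E, HIST1H4C and HIST2H2AB reached it in 0 WT libraries. HIST2H2AC reached it in 3 IRF2KO libraries, 1 WT library and 1 library labelled pIRF2. It was therefore tested because of its level in IRF2KO libraries, the group where it was highest. With edgeR's quasi-likelihood test and Benjamini-Hochberg adjustment over all 11517 tested genes, 0 of 30 members passed in IRF2KO against WT, where 0.417% of all genes did. The lowest adjusted p of a member was 0.256. An unadjusted p under 0.05 was reached by 7 of 30 members and by 18.7% of all genes, and DESeq2 called 0 of 48 members that had an adjusted p (0.888% of all genes).

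Over the 44 members with 20 or more counts in all libraries together, a choice that does not depend on the group, the mean CPM was higher in IRF2KO than in WT for 39, against 49.6% of all 12453 genes with as many counts. The exceptions were HIST2H4B, HIST1H4B, HIST1H2AJ, HIST1H2BM and HIST1H2AL. Every IRF2KO library lay above every WT library for 13 of the 44, against 9.03% of those genes, and the reverse held for 0, against 7.93%. With no filter on low counts, the median log2 fold change was 0.40 over the 54 members with counts and 0.00 over all 14948 genes with counts. Levels of these members move together between libraries, so their shared direction is not 44 separate observations.

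Among H4 genes, HIST1H4E had 7, 10 and 10 counts in IRF2KO libraries, against 3, 3 and 0 counts in WT libraries. The groups did not overlap, and the log2 fold change of 2.08 ± 0.79 was the largest of any tested member (edgeR adjusted p = 0.256). HIST1H4C had 0.623, 0.709 and 0.394 CPM in IRF2KO and 0.36, 0.326 and 0.103 CPM in WT libraries (1.14 ± 0.53, adjusted p = 0.269). The lowest IRF2KO value was just above the highest WT value. HIST1H4I (0.85 ± 0.52), HIST1H4A (0.49 ± 0.43) and HIST1H4H (0.18 ± 0.44) had overlapping groups. HIST2H4B, too low to be tested, had 5, 5 and 5 counts in IRF2KO and 9, 14 and 3 counts in WT libraries, and HIST1H4B had 3, 4 and 2 against 5, 3 and 3. HIST1H4J had 3, 8 and 2 counts against 3, 1 and 3, HIST1H4D 0, 5 and 1 against 2, 2 and 2, and HIST1H4K 0, 2 and 2 against 0, 1 and 0. These 5 genes had too few counts to show a direction.

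Among H2B genes, HIST1H2BD had 1.98, 2.07 and 2.54 CPM in IRF2KO libraries, against 1.08, 1.44 and 0.77 CPM in WT libraries. The groups did not overlap, and the log2 fold change was 1.02 ± 0.31 (edgeR adjusted p = 0.256). HIST1H2BF had 1.53, 1.42 and 1.24 CPM in IRF2KO and 0.927, 0.718 and 0.565 CPM in WT libraries (0.91 ± 0.33). HIST2H2BF, HIST1H2BO, HIST1H2BJ and HIST1H2BK also had every IRF2KO library above every WT library, with log2 fold changes of 0.75, 0.64, 0.53 and 0.45. HIST2H2BE, the most counted of all members, had 5.61, 7.95 and 8.45 CPM in IRF2KO and 6.85, 7.37 and 5.75 CPM in WT libraries. Its groups overlapped (0.14 ± 0.19), as did those of HIST1H2BL, HIST1H2BC, HIST1H2BN and HIST1H2BH.

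Among H2A genes, HIST2H2AC had 1.02, 0.607 and 1.01 CPM in IRF2KO libraries, against 0.309, 0.392 and 0.565 CPM in WT libraries (log2 fold change 1.03 ± 0.36, edgeR adjusted p = 0.256). HIST1H2AM, whose exons overlap HIST1H3J, had 3.06, 2.78 and 3.72 CPM in IRF2KO and 2.27, 2.02 and 1.75 CPM in WT libraries (0.66 ± 0.22). Neither gene's groups overlapped. HIST3H2A had 6.01, 6.93 and 6.54 CPM in IRF2KO and 5.25, 5.74 and 7.75 CPM in WT libraries. It was highest in WT replicate 3, where most other members were low, and its log2 fold change of 0.05 ± 0.17 was the smallest of the 30. HIST1H2AG, HIST2H2AB, HIST1H2AD and HIST1H2AC had overlapping groups and log2 fold changes of 0.41, 0.44, 0.27 and 0.15, that of HIST2H2AB with 0 WT libraries at the filter level.

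Of the H3 genes, HIST1H3H had 3.97, 3.29 and 4.34 CPM in IRF2KO libraries, against 3.04, 3.13 and 2.93 CPM in WT libraries, with no overlap (log2 fold change 0.35 ± 0.17, edgeR adjusted p = 0.274). HIST1H3C (0.68 ± 0.42) and HIST1H3B (0.40 ± 0.25) had overlapping groups. Of the linker histone genes, HIST1H1E had 5.33, 5.52 and 6.03 CPM in IRF2KO and 4.94, 5.22 and 2.88 CPM in WT libraries. Its groups did not overlap, by a narrow margin, with a log2 fold change of 0.38 ± 0.28. HIST1H1C (0.27 ± 0.22), HIST1H1B (0.26 ± 0.43) and HIST1H1D (0.11 ± 0.44) had overlapping groups.

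**Figure D3:**
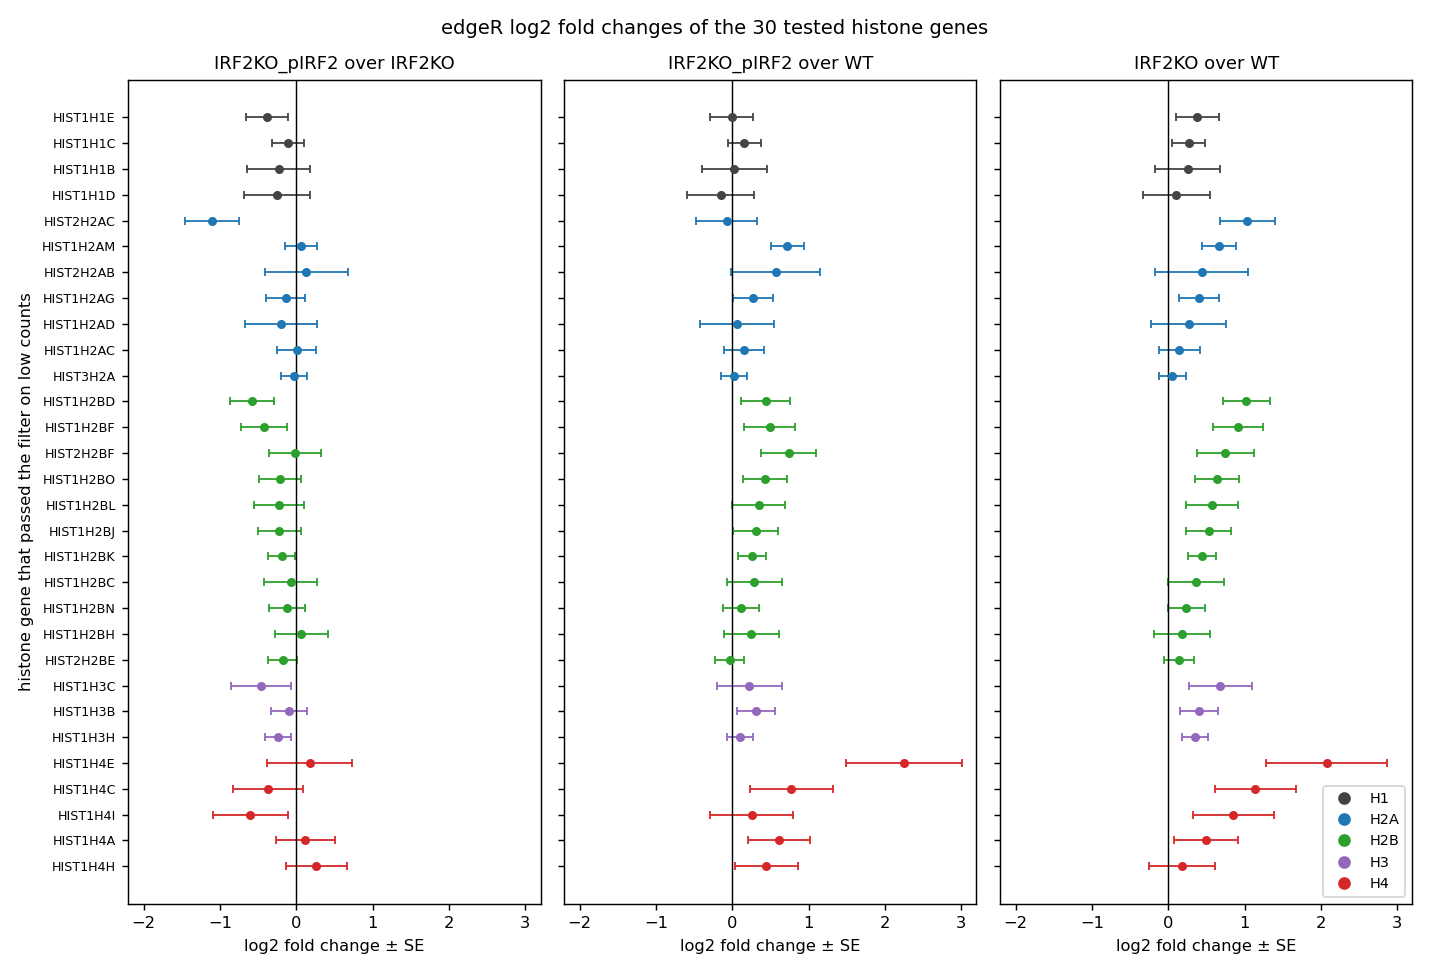
edgeR log2 fold changes with their SE for the 30 tested members, coloured by class, in IRF2KO_pIRF2 over IRF2KO, IRF2KO_pIRF2 over WT and IRF2KO over WT. In IRF2KO over WT the points run from 0.05 (HIST3H2A) to 2.08 (HIST1H4E), while 0 of the 30 passed the adjusted test in any panel.

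The libraries labelled pIRF2 were then set against IRF2KO libraries, which are labelled as IRF2 knockout without pIRF2. Whether both groups came from the same knockout clone is not stated in the labels. The summed level of all members was 74.1, 49.1 and 78.3 CPM in libraries labelled pIRF2, against 70.7, 76.2 and 82.4 CPM in IRF2KO libraries. The groups overlapped, with means of 67.2 ± 15.8 and 76.4 ± 5.89 CPM (SD, n = 3 each) and a log2 ratio of -0.19. Replicate 2 labelled pIRF2 set this difference, since without it the log2 ratio was -0.0039. Within libraries over 15% mitochondrial counts, which include every library labelled pIRF2, the log2 ratio was -0.24. H3 genes alone among the classes had groups that did not overlap, by a narrow margin. They summed to 7.47, 5.65 and 7.53 CPM in libraries labelled pIRF2 and 7.93, 8.35 and 10.2 CPM in IRF2KO libraries. Every library labelled pIRF2 was lower for 0 of the 3 tested H3 genes. It was so for 1 of 7 H3 genes with 20 or more counts, against 11.3% of all genes with as many counts.

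With edgeR, 0 of 30 members passed in this comparison, where 0.365% of all genes did. The lowest adjusted p of a member was 0.44, 1 of 30 members had an unadjusted p under 0.05 (11.2% of all genes) and DESeq2 called 0 of 50 (0.454% of all genes). That 1 member was HIST2H2AC, with 0.515, 0.297 and 0.381 CPM in libraries labelled pIRF2 against 1.02, 0.607 and 1.01 CPM in IRF2KO libraries. Its log2 fold change was -1.11 ± 0.35. It had passed the filter on low counts through the IRF2KO libraries, where it was highest. Every library labelled pIRF2 lay below every IRF2KO library for 4 of the 44 members with 20 or more counts (HIST2H2AC, HIST1H2BD, HIST1H4J and HIST1H3J), against 11.3% of genes with as many counts, and above for 0, against 10.7%. HIST1H2BD had 1.89, 0.892 and 1.57 CPM in libraries labelled pIRF2 and 1.98, 2.07 and 2.54 CPM in IRF2KO libraries (-0.58 ± 0.29). The mean was higher in libraries labelled pIRF2 for 13 of the 44, against 49.3% of all genes with as many counts. Among tested H4 genes, the log2 fold changes were 0.26 ± 0.40 for HIST1H4H, 0.18 ± 0.56 for HIST1H4E, 0.12 ± 0.38 for HIST1H4A, -0.37 ± 0.46 for HIST1H4C and -0.60 ± 0.49 for HIST1H4I, all with overlapping groups. HIST1H4E had 21, 3 and 12 counts in libraries labelled pIRF2, the widest spread of any group for that gene.

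Set against WT libraries, the libraries labelled pIRF2 had 67.2 ± 15.8 CPM and WT libraries 58.4 ± 7.88 CPM (SD, n = 3 each), a log2 ratio of 0.20 with overlapping groups. Without replicate 2 labelled pIRF2 it was 0.38, and without WT replicate 3 it was 0.098. Within libraries over 15% mitochondrial counts it was 0.43, with WT replicate 3 as the only WT library. With edgeR, 0 of 30 members passed, where 0.0781% of all genes did. The lowest adjusted p was 0.949, 2 members (HIST1H2AM and HIST1H4E) had an unadjusted p under 0.05 (3.92% of all genes) and DESeq2 called 0 of 43 (0.307% of all genes). HIST1H2AM, with 3.65, 2.53 and 3.76 CPM in libraries labelled pIRF2 against 2.27, 2.02 and 1.75 CPM in WT libraries, was the 1 member of the 44 with every library labelled pIRF2 above every WT library (log2 fold change 0.72 ± 0.22), against 5.97% of genes with as many counts. The reverse held for 0 of the 44, against 5.78%. The mean was higher in libraries labelled pIRF2 for 34 of the 44, against 47.4% of those genes. The 3 comparisons share libraries, so their values are not independent of each other.

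The pattern that recurred across members was that of 2 libraries. Over the 44 members with 20 or more counts, replicate 2 labelled pIRF2 was the lowest library for 18 and WT replicate 3 for another 18. How often these libraries were lowest over all genes was not counted, so the pattern is not shown to be particular to histone genes. Relative to the mean of replicates 1 and 3 labelled pIRF2, replicate 2 held 0.644 of the summed level over all members, 0.443 for H4, 0.549 for H1, 0.632 for H2B, 0.739 for H2A and 0.753 for H3 genes. H4 genes varied most between libraries, with a highest sum 3.32 times the lowest, against 1.37 for H2A genes, the class that varied least. H4 genes had only 654 counts over the 9 libraries, and few counts alone widen such a range. HIST3H2A, which was not low in these 2 libraries, held 1110 of the 2955 H2A counts. Whether the classes differ in spread apart from depth and single genes was not tested. HIST3H2A, HIST1H3H, HIST2H2BE, HIST1H2BN and HIST1H2BK varied least among the 44, between 1.48 and 1.55 times. After GC and length trends were removed, the tested members still summed lowest in replicate 2 labelled pIRF2 (47.6 CPM, against 71.1 and 74.4 CPM in replicates 1 and 3) and in WT replicate 3 (47.9 CPM, against 62.3 and 56.3 CPM in replicates 1 and 2).

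**Figure D4:**
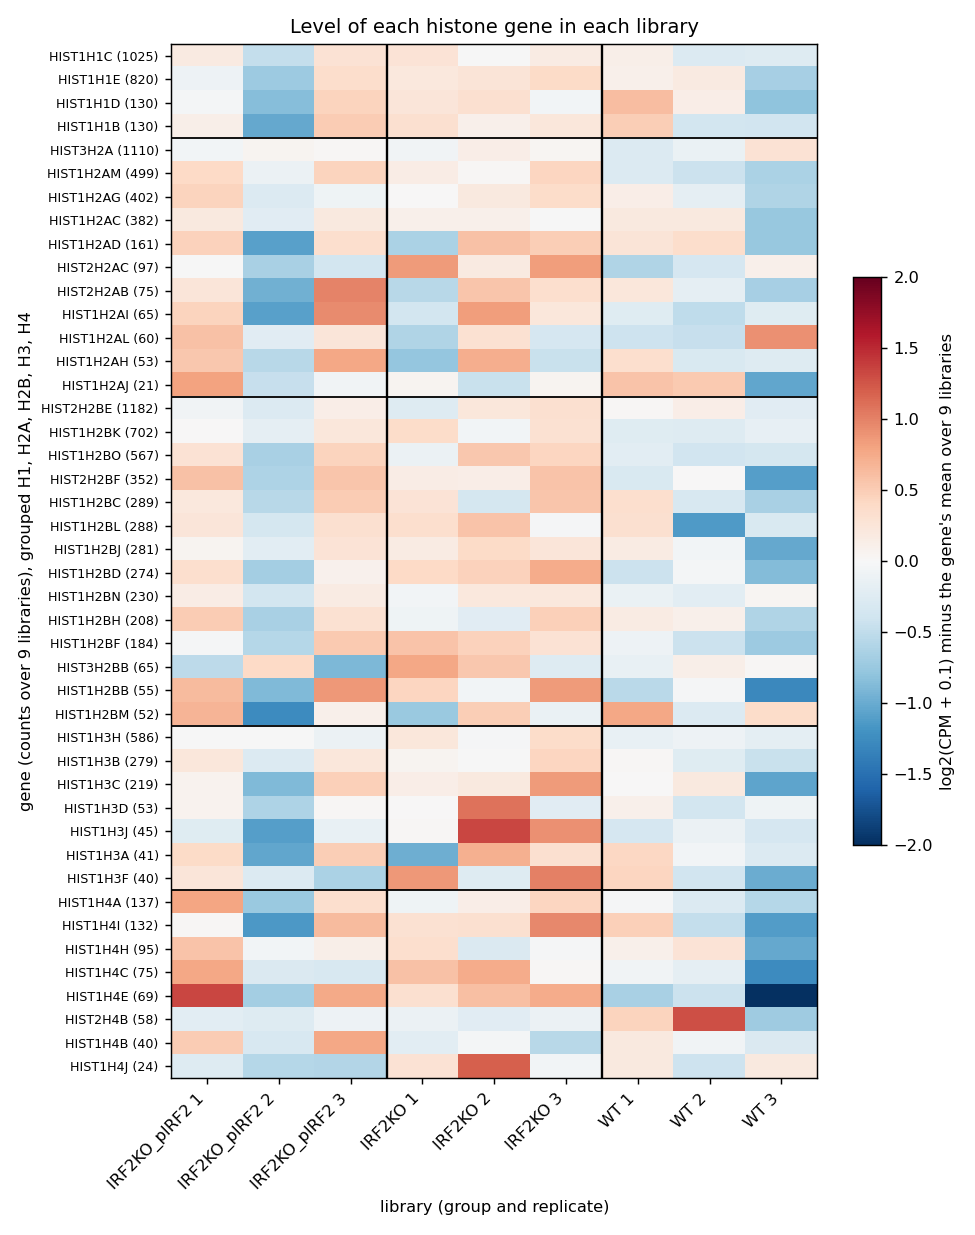
Level of each of the 44 members with 20 or more counts in each library, as log2(CPM + 0.1) minus the gene's own mean, with red above and blue below that mean and counts over 9 libraries in brackets. The columns of replicate 2 labelled pIRF2 and WT replicate 3 are mostly blue, and HIST3H2A is an exception in both.

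Genes with an annotated 3' end well past the stem-loop had a smaller ratio than the rest. The 22 members with over 100 annotated bases after it summed to 30.9, 32.9 and 37.1 CPM in IRF2KO libraries, against 29.5, 29.5 and 24.5 CPM in WT libraries, a ratio of 1.21. The other 49 members had 39.7, 43.3 and 45.4 CPM in IRF2KO and 35.7, 30.8 and 25.2 CPM in WT libraries, a ratio of 1.40. Replicate 2 labelled pIRF2 held 0.759 of the mean of the other libraries labelled pIRF2 for the first set and 0.554 for the second. The first set had 5348 counts, of which HIST2H2BE held 1182 and HIST3H2A 1110. Their log2 fold changes in IRF2KO against WT were 0.14 and 0.05. Most of the other 49 members had no stem-loop in an annotated transcript, so they are not shown to lack longer 3' ends. The split follows the annotation, and the difference between these sets was not tested.

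No tested gene of histone mRNA processing or histone gene transcription, a list of 23, passed edgeR's adjusted test in any comparison. Of all tested genes, 0.417% passed in IRF2KO against WT, 0.365% in libraries labelled pIRF2 against IRF2KO and 0.0781% in libraries labelled pIRF2 against WT. At such shares, 0 calls in lists of this size do not show that their genes were unchanged. SLBP, the stem-loop binding protein, had 109 ± 3.97 CPM in libraries labelled pIRF2 (SD, n = 3), 86.6, 95.3 and 103 CPM in IRF2KO libraries and 98.3 ± 7.13 CPM in WT libraries (SD, n = 3). NPAT, the coactivator of histone loci at S phase entry, had 16.3 ± 1.70 CPM in libraries labelled pIRF2, 13.6 ± 2.81 CPM in IRF2KO and 15.3 ± 2.60 CPM in WT libraries. HINFP, which binds the H4 site II element, had 13.7 ± 0.634 CPM in libraries labelled pIRF2, 13.2 ± 1.96 CPM in IRF2KO and 13.8 ± 0.668 CPM in WT libraries. Of 42 S phase and DNA replication genes, 0 passed in any comparison, with a median log2 fold change of 0.02 in IRF2KO against WT, and their sum was 3932 to 4206 CPM in IRF2KO and 4127 to 4162 CPM in WT libraries. Of 16 mitosis genes, 0 passed, with a median of -0.21, against -0.01 over all tested genes. Of 22 histone chaperones and 18 genes of the exosome and of decay of short polyadenylated RNA, 0 passed in any comparison, with medians of -0.01 and -0.18 in IRF2KO against WT.

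Replication-independent histone variants are mostly made also outside S phase, and mainly from polyadenylated mRNA. Of the 10 tested, 1 passed, in libraries labelled pIRF2 against IRF2KO, where 0.365% of all tested genes did. H2AFJ, the gene of the H2A.J variant, had 1.42, 1.59 and 1.24 CPM in libraries labelled pIRF2, against 2.72, 3.64 and 2.99 CPM in IRF2KO libraries. The groups did not overlap, and H2AFJ fell by 1.14 ± 0.20 on the log2 scale (edgeR, Benjamini-Hochberg adjusted p = 0.035; 0.0070 by DESeq2). It had 2.83, 2.55 and 2.36 CPM in WT libraries, and did not pass in libraries labelled pIRF2 against WT (-0.87 ± 0.21, adjusted p = 0.384) or in IRF2KO against WT (0.27 ± 0.19, adjusted p = 0.368). The call was lost without replicate 1, 2 or 3 labelled pIRF2 (edgeR adjusted p = 0.217, 0.123 and 0.291), IRF2KO replicate 1, 2 or 3 (0.0645, 0.0975 and 0.101) or WT replicate 1 or 2 (0.0505 and 0.0858), with log2 fold changes of -1.23 to -1.01. H3F3B and H3F3A, which encode the H3.3 variant, and H2AFZ and H2AFX did not pass in any comparison.

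Outside the histone genes, the levels most like the summed level of the members over the 9 libraries were those of UBXN10, KMT2C and SYNE3, with Pearson's r of 0.953, 0.945 and 0.942 on log2 CPM among 11487 genes searched. UBXN10 had 0.601, 0.297 and 0.572 CPM in libraries labelled pIRF2, 0.510, 0.607 and 0.564 CPM in IRF2KO and 0.463, 0.326 and 0.257 CPM in WT libraries. These lie near the filter level of 0.501 CPM, so its r rests on few counts. KMT2C, a histone H3 lysine methyltransferase, had 58.0, 37.8 and 58.2 CPM in libraries labelled pIRF2, 44.9, 52.5 and 57.8 CPM in IRF2KO libraries and 47.4, 43.7 and 36.2 CPM in WT libraries. Like the histone sum, it was lowest in WT replicate 3 and replicate 2 labelled pIRF2. SYNE3, a nuclear envelope protein of the nesprin family, had 3.65, 1.64 and 3.38 CPM in libraries labelled pIRF2, 2.38, 4.25 and 4.45 CPM in IRF2KO and 2.63, 2.22 and 1.64 CPM in WT libraries. The 9 points share libraries and scaling with the histone values, and these genes were picked for the highest r among all those searched, so no p is given.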

How the data were processed

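RNA-seq of U937-Cas9 cells was analysed from 1 table of raw read counts per gene, deposited by the authors without normalisation, with 9 libraries in 3 groups of 3. Per the labels' protocols, libraries were made with Lexogen's SENSE mRNA-Seq kit. The submitters' processing notes name hg38 as the build and list HTSeq 0.9.1, TopHat2 2.1.1 and Bowtie2 2.3.3, besides bedtools and SAMtools. They give no annotation release, strand setting or rule for reads that fit several genes.

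Of 20265 identifiers, 20012 matched GENCODE 29, which gave symbols, coordinates (GRCh38, counted from 1), exon overlaps and transcripts. Promoter windows came from RefSeq (GRCh38.p14) and were used where their start lay within 1000 bases of the GENCODE start. The stem-loop was searched in GENCODE transcripts as GG, 3 pyrimidines, TTT, 2 bases other than G, AG, a purine and GCC.

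Counts were filtered with filterByExpr (minimum count 10), scaled with TMM and tested in R 4.3.3 by edgeR 4.0.16 (quasi-likelihood F-test), fitted jointly to all 9 libraries with no covariate and Benjamini-Hochberg adjustment over 11517 genes (threshold 0.05). Log2 fold changes carry their SE. Alternatives were DESeq2 1.42.0, other scaling, no filter, libraries left out, 2 groups only, a replicate block, mitochondrial share as a covariate, GC and length offsets and, added after seeing the data, fits within libraries under or over 15% mitochondrial counts. The fit was tested on simulated data. Summed levels were described without a test. Floors (3 counts) and intervals (Clopper-Pearson, 95%) cover counting error only, since no molecular identifiers are stated.

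The rule named IRF2, every tested member, every H4 gene, members with 20 or more counts, up to 4 called genes per neighbouring list and the 3 genes most like the summed level. Genes of the neighbouring lists named without a call were chosen after their values were seen. The members, lists and tests were chosen with earlier results of these data known.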

Additional observations from a re-analysis of the deposited data

How the results depend on the processing

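The count of histone members called was 0 in each comparison under all 17 other settings tried, the replicate block included (0 called in IRF2KO against WT, in libraries labelled pIRF2 against IRF2KO and in libraries labelled pIRF2 against WT). It was also 0 in each comparison among libraries over 15% mitochondrial counts, where WT replicate 3 is the only WT library, and in IRF2KO against WT among libraries under 15%, where IRF2KO replicate 1 is the only IRF2KO library and no library labelled pIRF2 falls; the spread of such a single library was taken from the other groups. IRF2, the targeted gene, passed in IRF2KO against WT (edgeR adjusted p = 0.0433) but lost its call in 11 of the 17 settings. A setting that did not call IRF2 cannot show that smaller histone differences were absent. The replicate numbers did not pair the libraries: deviations of same-numbered libraries had correlations of -0.43 to 0.61. The log2 ratio of the summed level was 0.28 to 0.48 over 11 other settings in IRF2KO against WT, -0.31 to -0.0039 in libraries labelled pIRF2 against IRF2KO, and 0.077 to 0.38 in libraries labelled pIRF2 against WT. In IRF2KO against WT it moved to 0.17 among libraries under 15% mitochondrial counts and to 0.67 among those over 15%; the cause was not tested. The H2AFJ call was also lost with only the groups compared (edgeR adjusted p = 0.0961), under the replicate block (0.085), without WT replicate 1 and IRF2KO replicate 2 together (0.061) and among libraries over 15% mitochondrial counts (0.133). Depth limits H4 genes most, since 15 of them shared 654 counts.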
